A study of Homo sapiens with 54 samples.

Results

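The response to a low dose of the compound coded CP2 was described in A549 cells, a human lung adenocarcinoma line. Members were the 6 libraries with 2 µM CP2, set against the 6 vehicle libraries of the same cells, with the vector as an additive covariate. These 12 of the 54 libraries were taken by their group labels. In each case 3 libraries came from cells with an insertless vector (labelled E_V, here empty-vector cells) and 3 from cells with a USP18 expression vector (labelled USP18_O_E, here USP18 cells). Cells were harvested 48 h after the start of treatment, and the vehicle was DMSO. A further 6 libraries with 5 µM CP2, 3 per cell type and also at 48 h, served for comparison between doses. The compounds are given by code without a key. For RNA sequencing the authors name β-lapachone at 2.5 µM, a dose at which there are groups of CP14 and CP18 but none of CP2. The authors also used β-lapachone at 2 µM in growth assays. CP2 is therefore called by its code. RNA was sequenced, and the number of fragments expected from each gene was estimated per library. The 12 libraries held 18072475 to 25609062 expected counts, with a median of 20506523. Levels are given as CPM, a gene's count relative to the total of its library after TMM scaling, which compares libraries and not genes of different length.

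The epithelial identity of the line was checked first. All 6 epithelial marker genes (EPCAM, KRT7, KRT8, KRT18, KRT19 and CDH1) had more than 3 counts in each of the 12 libraries, and summed to 13041, 13218 and 13119 CPM with vehicle and 12122, 12241 and 11977 CPM with 2 µM CP2 in empty-vector cells, where treated sums were below all vehicle sums. In USP18 cells, where the sums overlapped, they were 8669, 8750.4 and 8923 CPM and then 8663, 8731 and 8558 CPM. Most of the epithelial sums came from KRT8, KRT18 and KRT7, while EPCAM and KRT19 had means of 7.63 and 15.8 CPM. The 6 alveolar type 2 markers summed to between 1.00 and 2.64 CPM, and SFTPA1 and SFTPB had 0 counts in all 12 libraries. The 6 leukocyte markers summed to between 34.4 and 42.9 CPM, mostly from CD68 with a mean of 35.2 CPM. The 4 endothelial markers summed to between 0.15 and 0.55 CPM. The 6 fibroblast markers summed to 15.7, 13.4 and 16.0 CPM with vehicle in empty-vector cells and to 15.2, 13.2 and 13.9 CPM with 2 µM CP2, and to 9.16, 8.29 and 9.23 CPM and then 9.44, 8.67 and 8.20 CPM in USP18 cells.

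The 2 genes named as markers of the CP2 response, CYP1B1 and ALDH3A1, are both known targets of the aryl hydrocarbon receptor (AhR). AhR is a transcription factor held in the cytoplasm with HSP90. A bound ligand, such as a polycyclic aromatic compound in smoke, sends it to the nucleus, where with ARNT it binds response elements and raises genes of xenobiotic metabolism, in lung epithelium among other tissues. USP18, the protein that the second vector encodes, takes the ubiquitin-like modifier ISG15 off other proteins and dampens interferon signalling.

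Across all genes, the change at 2 µM was broad in number and small in size. Of 58870 genes in the table, 28451 had a count in the 12 libraries, and 15811 passed the filter on low counts and were tested with edgeR. At an adjusted p under 0.05 (Benjamini-Hochberg), 471 genes (2.98% of those tested) differed from vehicle. Of these, 172 (1.09%) were higher and 299 (1.89%) were lower with CP2. The median absolute log2 fold change of the 471 genes was 0.15, with quartiles of 0.10 and 0.21, and in 18 of them it was over 0.5. Over all 15811 genes the median log2 fold change was -0.000513. Every treated library lay beyond every vehicle library within both cell types in 308 of the 471 genes (65.4%). Over all 15811 genes this held in 517 (3.27%). The calls came from the same libraries, so the larger share follows from that choice and is no further evidence. An unadjusted p under 0.05 was reached by 2267 genes. DESeq2 called 525 genes, of which 438 were among the 471. In 1 fit of all 54 libraries 216 genes passed, 207 of them among the 471. In RNA from a whole culture, a small change in every cell and a larger one in some of the cells cannot be told apart.

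**Figure D1:**
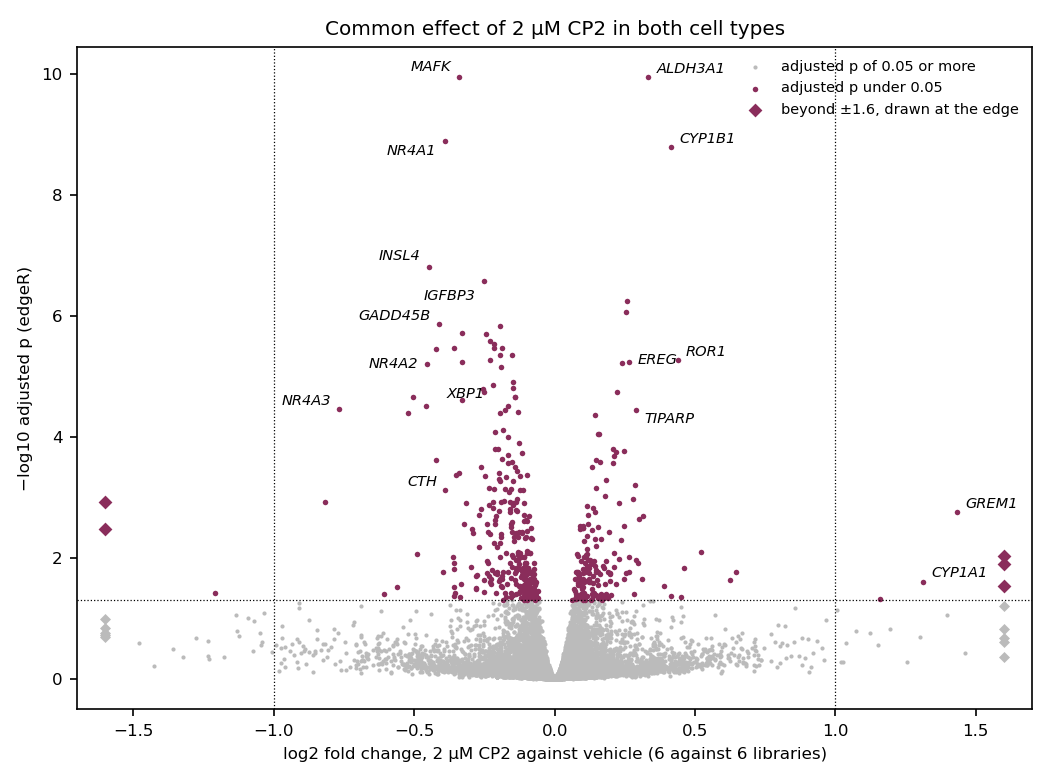
Each of 15811 tested genes is a point at its log2 fold change (2 µM CP2 against vehicle, both cell types together) and the negative log10 of its adjusted p from edgeR; dotted lines mark an adjusted p of 0.05 and log2 fold changes of -1 and 1, and 15 genes beyond 1.6 are drawn at the edge as diamonds. ALDH3A1 and MAFK share the smallest adjusted p, 1.14e-10, with log2 fold changes of 0.33 and -0.34.

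CYP1B1 (ENSG00000138061.12, chromosome 2 from 38066973 to 38109902) encodes a monooxygenase that oxidises polycyclic compounds and oestrogens. Its level in empty-vector cells was 158, 147 and 160.5 CPM in the 3 vehicle libraries and 198, 215 and 214 CPM in the 3 libraries with 2 µM CP2. In USP18 cells it was 97.7, 91.8 and 99.6 CPM with vehicle and 126, 125 and 132 CPM with CP2. All treated libraries were above all vehicle libraries of the same cell type, and the level without treatment was lower in USP18 cells. The log2 fold change was 0.42 (standard error, SE, of 0.028, 95% confidence interval 0.36 to 0.47, adjusted p = 1.63e-09), a fold of 1.33. ALDH3A1 (ENSG00000108602.18, chromosome 17 from 19737984 to 19748943) encodes an aldehyde dehydrogenase that A549 cells are known to hold in large amounts. Its level in empty-vector cells was 1026, 978 and 990.4 CPM with vehicle and 1265, 1301 and 1286 CPM with 2 µM CP2. In USP18 cells the values were 437, 442 and 424 CPM and 526, 549.2 and 534 CPM. Here too the groups did not overlap in either cell type, and vehicle levels in USP18 cells were under those in empty-vector cells. Its log2 fold change was 0.33 (SE 0.019, 95% confidence interval 0.30 to 0.37, adjusted p = 1.14e-10), a fold of 1.26. Both markers kept an adjusted p under 0.05 in each alternative fit that tested them and in each of the 12 fits that left out 1 library.

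Of 12 AhR targets listed, 10 were tested, and 5 of these passed the test as higher and 0 as lower, beside 1.09% and 1.89% over all genes; an unadjusted p under 0.05 was reached by 7 of them, and DESeq2 called 4 higher and 0 lower. Their median log2 fold change was 0.28, beside -0.000513 over all genes. The 5 calls and this median include CYP1B1 and ALDH3A1, the markers named beforehand, which are thus no further evidence. CYP1A2 and SERPINB2 were below the filter. CYP1A1 (ENSG00000140465.14, chromosome 15 from 74719542 to 74725536), the classical AhR target, was close to the limit of detection, with 5, 6 and 8 counts in the vehicle libraries of empty-vector cells and 16, 9 and 14 with 2 µM CP2. In USP18 cells its counts were 4, 10 and 3 with vehicle against 22, 13 and 16 with CP2. Treated and vehicle CPM values did not overlap within either cell type, although each count was small. Its log2 fold change was 1.31 (SE 0.32, adjusted p = 0.0246). The call rested on single libraries: it was lost in 5 of 12 fits, those that left out in turn replicate 1 of vehicle in empty-vector cells, replicates 1 and 3 of vehicle in USP18 cells, replicate 1 of 2 µM CP2 in empty-vector cells and replicate 1 of 2 µM CP2 in USP18 cells, with adjusted p values up to 0.0832. TIPARP (ENSG00000163659.13, chromosome 3 from 156673235 to 156706770) encodes a mono-ADP-ribosyltransferase that acts on AhR and limits its activity. TIPARP was at 24.9, 26.4 and 27.9 CPM with vehicle and 33.2, 30.7 and 33.4 CPM with CP2 in empty-vector cells, and at 42.0, 41.8 and 44.9 CPM and 54.7, 50.6 and 52.1 CPM in USP18 cells. All treated values lay above the vehicle values of their cell type, and unlike CYP1B1 the gene was higher in USP18 cells. TIPARP rose by 0.29 on the log2 scale (SE 0.038, adjusted p = 3.61e-05). EREG (ENSG00000124882.4, chromosome 4 from 74365145 to 74388749) encodes epiregulin, a ligand of the EGF receptor. Its mean with vehicle was 79.1 ± 7.51 CPM (SD, n = 3) in empty-vector cells, where CP2 gave 98.1 ± 2.56 CPM, and 160.1 ± 1.21 CPM in USP18 cells, where CP2 gave 189 ± 1.91 CPM. EREG rose by 0.27 on the log2 scale (SE 0.030, adjusted p = 5.79e-06), and its treated and vehicle libraries did not overlap. AREG, which encodes amphiregulin and lies beside EREG on chromosome 4, rose by 0.22 (adjusted p = 1.83e-05). AHRR, the AhR repressor, had a log2 fold change of 0.30 that did not pass the test (adjusted p = 0.262), nor did NQO1, UGT1A1, UGT1A6 or CYP2S1, with adjusted p values from 0.174 to 0.835. UGT1A1 and UGT1A6 share exons, so their counts are uncertain.

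**Figure D2:**
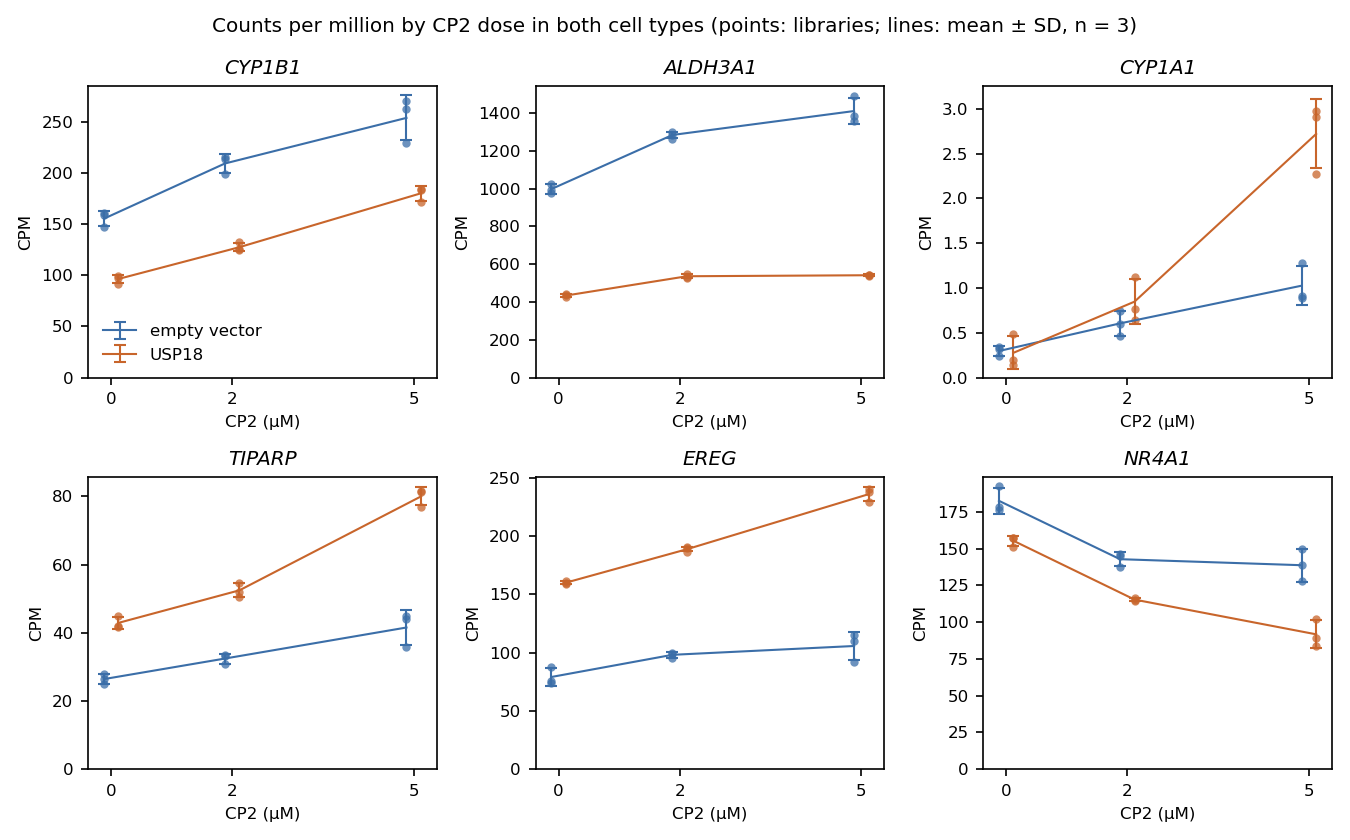
CPM in each library (points) over CP2 dose in µM, with the mean ± SD of 3 libraries (lines), for CYP1B1, ALDH3A1, CYP1A1, TIPARP, EREG and NR4A1 in both cell types. In empty-vector cells the mean of CYP1B1 goes from 155 CPM with vehicle through 209 CPM at 2 µM to 254 CPM at 5 µM.

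The AhR targets CYP1A1, TIPARP and EREG rose at 2 µM, and RefSeq (GRCh38.p14) holds a promoter for each; the last 250 bases before the start site are shown because the core of the AhR response element, GCGTG or its complement CACGC, is found in them. Capitals mark these letters. They begin at -57 in CYP1A1 (chr15:74725529-74725778, minus strand), at -208 and -142 in TIPARP (chr3:156674340-156674589, plus strand) and at -249 in EREG (chr4:74364895-74365144, plus strand), where -1 is the last base before the start site.
CYP1A1: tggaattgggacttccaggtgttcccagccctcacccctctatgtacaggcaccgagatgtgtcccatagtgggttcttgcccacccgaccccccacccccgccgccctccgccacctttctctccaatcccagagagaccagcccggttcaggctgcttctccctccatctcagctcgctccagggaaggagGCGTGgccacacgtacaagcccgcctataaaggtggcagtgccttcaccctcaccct
TIPARP: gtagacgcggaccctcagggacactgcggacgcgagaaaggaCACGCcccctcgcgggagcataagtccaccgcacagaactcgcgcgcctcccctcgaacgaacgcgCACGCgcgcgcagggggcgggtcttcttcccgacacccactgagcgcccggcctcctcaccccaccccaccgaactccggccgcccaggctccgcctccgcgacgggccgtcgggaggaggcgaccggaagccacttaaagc
EREG: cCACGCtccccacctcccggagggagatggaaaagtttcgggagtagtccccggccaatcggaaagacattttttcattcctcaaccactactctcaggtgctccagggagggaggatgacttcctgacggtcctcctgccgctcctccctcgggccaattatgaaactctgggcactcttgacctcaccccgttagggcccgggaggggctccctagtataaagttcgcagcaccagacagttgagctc
The core was present in 5 of the 10 AhR targets that have a promoter entry, and in 32.2% of all 35116 promoters of the same length. Besides CYP1A1, TIPARP and EREG these were AHRR and UGT1A6, which did not pass the test at 2 µM. A match of 5 letters describes the sequence and does not show a binding site. The table holds no promoter for CYP1B1 or ALDH3A1. The stretch printed for TIPARP lies inside the gene coordinates given above, because it precedes a start site further downstream.

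Genes of the AhR complex itself (AHR, ARNT, ARNT2, PTGES3, HSP90AA1 and HSP90AB1) changed little. AHR, the receptor gene, was at 96.1, 97.6 and 89.2 CPM with vehicle and 84.7, 82.3 and 96.4 CPM with CP2 in empty-vector cells, and at 132, 136 and 139 CPM and then 119, 115 and 126 CPM in USP18 cells. The groups overlapped in empty-vector cells and were separate in USP18 cells, where CP2 values were lower. The log2 fold change was -0.14 (SE 0.034, adjusted p = 0.0228). This call was lost in 8 of 12 fits, those that left out in turn replicates 1 and 2 of vehicle in empty-vector cells, replicates 2 and 3 of vehicle in USP18 cells, replicates 1 and 2 of 2 µM CP2 in empty-vector cells and replicates 1 and 2 of 2 µM CP2 in USP18 cells, with adjusted p values up to 0.0716, and also in the fit of all 54 libraries. HSP90AA1, which encodes the inducible HSP90 alpha, rose by 0.10 (SE 0.019, adjusted p = 0.00293), a call that the fit of all 54 libraries did not give. ARNT, ARNT2, PTGES3 and HSP90AB1 did not pass, with log2 fold changes from -0.067 in ARNT to 0.036 in ARNT2.

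Only 9 genes (0.0569% of those tested) passed an adjusted p under 0.05 and also lay beyond -1 or 1 on the log2 scale, 6 higher and 3 lower. Of these, 3 (CYP1A1, GREM1 and CHURC1-FNTB) had separate treated and vehicle libraries in both cell types. GREM1 (ENSG00000166923.11, chromosome 15 from 32718004 to 32745106) encodes gremlin, a secreted antagonist of bone morphogenetic proteins. In empty-vector cells its counts were 2, 4 and 3 with vehicle and 10, 5 and 13 with CP2, and in USP18 cells 14, 18 and 23 with vehicle and 55, 43 and 43 with CP2. Counts were higher in USP18 cells under both conditions, and treated libraries stood above vehicle in each cell type. GREM1 rose by 1.43 on the log2 scale (SE 0.26, adjusted p = 0.00177), and it passed in each of 12 fits with 1 library left out. Counts of the other 7 genes are given next, and in most of them the libraries of a group were far apart. CHURC1-FNTB and INO80B-WBP1 are read-through genes that share sequence with their neighbours, and SMIM11A has a near-identical copy, so their counts are uncertain. INO80B-WBP1 had 0 counts in all 6 treated libraries, and 0, 38 and 102 counts in the vehicle libraries of empty-vector cells and 85, 11 and 31 in those of USP18 cells. With a floor of 3 counts per library this is at least 14.6-fold lower in empty-vector cells and at least 14.0-fold lower in USP18 cells, although 1 vehicle library was at 0 too. AC019257.8 rose from 0 counts in the vehicle libraries of empty-vector cells, to 25, 12 and 4 with CP2, at least 4.57-fold, while in USP18 cells counts were 4, 0 and 2 with vehicle against 3, 29 and 0 with CP2. AL162151.2, a processed pseudogene, was at least 5.12-fold higher in USP18 cells, where counts were 0, 0 and 3 with vehicle and 19, 14 and 12 with CP2; in empty-vector cells they were 4, 0 and 3 against 7, 0 and 55. The counts of AC012184.2 in empty-vector cells were 47, 36 and 42 with vehicle against 37, 87 and 106 with CP2, and in USP18 cells 0, 37 and 22 against 43, 67 and 60. AC005538.2 had counts of 89, 0 and 77 in the vehicle libraries of empty-vector cells against 0, 10 and 2 with CP2, and of 0, 87 and 191 against 0, 0 and 5 in USP18 cells. CHURC1-FNTB had counts of 36, 42 and 42 with vehicle against 8, 22 and 25 with CP2 in empty-vector cells, and of 15, 28 and 14 against 11, 1 and 10 in USP18 cells. SMIM11A had 93, 5 and 40 counts in the treated libraries of empty-vector cells, which overlap the 6, 26 and 23 of vehicle, and 237, 187 and 30 against 19, 20 and 10 in USP18 cells. With 1 library left out, calls were lost in 9 of 12 fits for AC012184.2, 7 for AC019257.8, 6 for CHURC1-FNTB and 1 for AL162151.2, with adjusted p values up to 0.132, 0.124, 0.107 and 0.0803. The libraries concerned were replicates 1, 2 and 3 of vehicle in empty-vector cells, replicate 3 of vehicle in USP18 cells, replicates 2 and 3 of 2 µM CP2 in empty-vector cells and replicates 1, 2 and 3 of 2 µM CP2 in USP18 cells for AC012184.2. For AC019257.8 they were replicates 1, 2 and 3 of vehicle in empty-vector cells, replicate 2 of vehicle in USP18 cells, replicates 1 and 2 of 2 µM CP2 in empty-vector cells and replicate 2 of 2 µM CP2 in USP18 cells. For CHURC1-FNTB they were replicates 1 and 2 of vehicle in empty-vector cells, replicate 2 of vehicle in USP18 cells, replicates 1 and 3 of 2 µM CP2 in empty-vector cells and replicate 2 of 2 µM CP2 in USP18 cells, and for AL162151.2 replicate 3 of 2 µM CP2 in empty-vector cells. The count of 9 became 16 without replicate 3 of vehicle in empty-vector cells. In the fit of all 54 libraries, 3 of the 9 (CYP1A1, GREM1 and INO80B-WBP1) passed both thresholds, and AC005538.2 (adjusted p = 0.0804) and SMIM11A (adjusted p = 0.186) were lost with the other 4. DESeq2 gave 0 genes past both thresholds. It gave none of the 9 an adjusted p, and 33 genes had an unadjusted p under 0.05 in it with a log2 fold change over 1.

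Among falls, the smallest adjusted p was that of MAFK (ENSG00000198517.10, chromosome 7 from 1530702 to 1543043), which encodes a small MAF protein that pairs with NRF2 and BACH factors on DNA. MAFK was at 284, 294 and 279.6 CPM with vehicle and 229.6, 218 and 223 CPM with CP2 in empty-vector cells. In USP18 cells it was at 254, 251 and 244 CPM and 200.3, 201 and 197 CPM. The treated libraries of each cell type were below all of its vehicle libraries. The log2 fold change of MAFK was -0.34 (SE 0.019, 95% confidence interval -0.38 to -0.30, adjusted p = 1.14e-10).

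Immediate early genes, which serum, growth factors or stress switch on within minutes without new protein synthesis, were lower in most members. Of 17 tested of 18, 10 passed as lower and 1 as higher, beside 1.89% and 1.09% of all genes, with a median log2 fold change of -0.15; DESeq2 gave 10 and 1, and the fit of all 54 libraries 7 and 0. The NR4A genes encode orphan nuclear receptors. NR4A1 (ENSG00000123358.20, chromosome 12 from 52022832 to 52059507) was at 176, 193 and 178 CPM with vehicle and 145, 146 and 137 CPM with CP2 in empty-vector cells. In USP18 cells NR4A1 was at 151, 157 and 158 CPM and 117, 115 and 114 CPM. No treated library reached a vehicle library of its cell type, and vehicle levels in USP18 cells were below those in empty-vector cells. NR4A1 had a log2 fold change of -0.39 (SE 0.025, adjusted p = 1.28e-09). NR4A2 was at 11.9, 12.3 and 12.9 CPM with vehicle and 9.96, 8.65 and 9.56 CPM with CP2 in empty-vector cells, and at 22.9, 23.5 and 22.9 CPM and then 15.3, 16.5 and 17.0 CPM in USP18 cells. NR4A3 was at 7.11, 6.00 and 5.92 CPM with vehicle and 4.63, 3.45 and 3.70 CPM with CP2 in empty-vector cells and at 8.51, 8.54 and 11.0 CPM and then 5.18, 4.63 and 5.90 CPM in USP18 cells. Treated libraries of both genes were below the vehicle libraries in each cell type. The log2 fold changes were -0.46 (SE 0.052, adjusted p = 6.22e-06) for NR4A2 and -0.77 (SE 0.099, adjusted p = 3.53e-05) for NR4A3. DUSP1, a phosphatase gene that ends MAP kinase signals, was at 273 ± 7.09 CPM (SD, n = 3) with vehicle in empty-vector cells, where CP2 gave 235 ± 3.11 CPM, and at 116 ± 7.06 CPM in USP18 cells, where CP2 gave 95.8 ± 1.22 CPM. It fell by 0.24 on the log2 scale (SE 0.025, adjusted p = 1.98e-06). Other members named next were chosen after their values were seen. FOS had a log2 fold change of -0.25 (adjusted p = 0.000449), FOSB -0.30 (adjusted p = 0.0139), EGR1 -0.20 (adjusted p = 0.000162) and JUNB -0.15 (adjusted p = 0.000725). FOSL2 and IER2 also passed as lower. The 1 member that passed as higher was IER3 (0.094, adjusted p = 0.029). JUN (0.13, adjusted p = 0.0837), FOSL1 (0.18, adjusted p = 0.15) and MYC (0.016, adjusted p = 0.814) did not pass. Outside the list, and named only for a small adjusted p, ZFP36, which encodes a protein that shortens the life of mRNAs with AU-rich elements, fell by 0.33 (adjusted p = 1.93e-06) and GADD45B, a stress-response gene, fell by 0.41 (adjusted p = 1.37e-06).

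Promoters are given for NR4A3 (chr9:99821635-99821884, plus strand) and DUSP1 (chr5:172771196-172771445, minus strand) because each holds 4 matches to the short core of the cyclic AMP response element, TGACG or its complement CGTCA, marked in capitals. The full element TGACGTCA holds both of these, overlapping. Matches begin at -109, -91, -83 and -25 in NR4A3 and at -172, -125, -122 and -111 in DUSP1.
NR4A3: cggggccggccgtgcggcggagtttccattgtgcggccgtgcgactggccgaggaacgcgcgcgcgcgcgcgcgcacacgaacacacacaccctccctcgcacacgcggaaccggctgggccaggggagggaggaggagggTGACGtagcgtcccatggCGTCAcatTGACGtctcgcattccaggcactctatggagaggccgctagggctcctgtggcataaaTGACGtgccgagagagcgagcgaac
DUSP1: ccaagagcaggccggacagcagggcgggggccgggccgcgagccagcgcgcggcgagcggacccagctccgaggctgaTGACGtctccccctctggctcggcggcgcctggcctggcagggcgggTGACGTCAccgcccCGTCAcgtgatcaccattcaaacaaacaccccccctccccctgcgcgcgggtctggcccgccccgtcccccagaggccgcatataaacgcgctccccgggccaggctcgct
The short core was found in 10 of 13 immediate early genes with a promoter entry, and in 21.2% of all promoters of this length. Among these 10 were JUN and JUND, which did not pass the test. The full element was found in 2 of the 13 (JUND and DUSP1), and in 1.65% of all promoters. The sequences come from RefSeq (GRCh38.p14), which has no entry for NR4A2 or MAFK in this table.

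Chaperones and folding enzymes of the endoplasmic reticulum, which the unfolded protein response raises under folding stress, had calls in 1 direction only. Of 16 genes on the list, 6 passed as lower and 0 as higher, beside 1.89% and 1.09% over all genes, and 10 had an unadjusted p under 0.05; DESeq2 called 6 lower and 0 higher. The median log2 fold change was -0.070, and 1 of the 16 was above 0. XBP1 (ENSG00000100219.16, chromosome 22 from 28794555 to 28800597) encodes a transcription factor of this response. It was at 163, 175 and 155 CPM with vehicle and 140.4, 145 and 137 CPM with CP2 in empty-vector cells, and at 195, 192 and 203 CPM and then 163, 172 and 172 CPM in USP18 cells. The treated libraries were below vehicle in each cell type. XBP1 had a log2 fold change of -0.22 (SE 0.026, adjusted p = 1.4e-05). CALR, the gene of the calcium-binding chaperone calreticulin, was at 662 ± 4.77 CPM (SD, n = 3) with vehicle in empty-vector cells, where CP2 gave 627 ± 1.97 CPM, and at 736 ± 4.78 CPM in USP18 cells, where CP2 gave 681 ± 4.94 CPM. CALR changed by -0.097 on the log2 scale (SE 0.015, adjusted p = 0.000426). HSP90B1 (-0.079, adjusted p = 0.00483) and CANX (-0.072, adjusted p = 0.0152) passed too, but not in the fit of all 54 libraries, which called 2 of the list. HSPA5 and PDIA6, named after their values were seen, complete the 6.

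The ER stress response element (ERSE) pairs CCAAT with CCACG, separated by 9 bases, on either strand. Promoters of XBP1 (chr22:28800570-28800819, minus strand), CALR (chr19:12938359-12938608, plus strand) and HSP90B1 (chr12:103930160-103930409, plus strand) from RefSeq (GRCh38.p14) are shown because these lower genes hold it. It begins at -52 in XBP1, at -225 in CALR, and in HSP90B1 at -194 and -89. Capitals mark the paired parts of the element.
XBP1: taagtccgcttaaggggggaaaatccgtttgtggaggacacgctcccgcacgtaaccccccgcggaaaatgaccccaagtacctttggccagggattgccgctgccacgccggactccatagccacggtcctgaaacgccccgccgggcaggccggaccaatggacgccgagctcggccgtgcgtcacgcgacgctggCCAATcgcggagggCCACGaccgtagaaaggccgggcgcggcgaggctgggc
CALR: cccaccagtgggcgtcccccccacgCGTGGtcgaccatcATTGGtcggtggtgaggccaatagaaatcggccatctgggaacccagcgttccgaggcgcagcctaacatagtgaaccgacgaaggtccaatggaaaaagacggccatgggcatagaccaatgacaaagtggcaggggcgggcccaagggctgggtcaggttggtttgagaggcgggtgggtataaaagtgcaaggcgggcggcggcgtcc
HSP90B1: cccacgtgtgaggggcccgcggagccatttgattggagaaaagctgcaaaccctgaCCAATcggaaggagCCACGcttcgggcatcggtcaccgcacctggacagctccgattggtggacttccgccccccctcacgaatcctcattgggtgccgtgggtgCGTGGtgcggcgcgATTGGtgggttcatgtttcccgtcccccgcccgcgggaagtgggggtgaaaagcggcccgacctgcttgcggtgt
Of the 16 genes on the list, 6 held the element, and of all 35116 promoters 26 did (0.074%). Among these 6 was CRELD2, which did not pass the test.

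ATF4 targets, which amino acid shortage and the integrated stress response raise, had 3 of 22 genes lower and 0 higher by edgeR (over all genes 1.89% and 1.09%), with 11 at an unadjusted p under 0.05 in either direction and the same counts by DESeq2. Of the 22, 10 were above 0. At 5 µM 9 passed as higher and 2 as lower, beside 1850 higher and 2092 lower of all 15760 genes. CTH, which encodes the enzyme that makes cysteine from cystathionine, was at 9.65, 10.4 and 10.1 CPM with vehicle and 7.34, 7.06 and 8.53 CPM with CP2 in empty-vector cells. It was at 13.2, 13.2 and 13.2 CPM and then 9.23, 9.82 and 11.2 CPM in USP18 cells, so that CP2 values were below vehicle in both. CTH changed by -0.39 on the log2 scale (SE 0.064, adjusted p = 0.000757). The amino acid transporter genes SLC3A2 (-0.10, adjusted p = 0.00455) and SLC7A5 (-0.10, adjusted p = 0.0123) were the other 2, and neither passed in the fit of all 54 libraries.

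**Figure D3:**
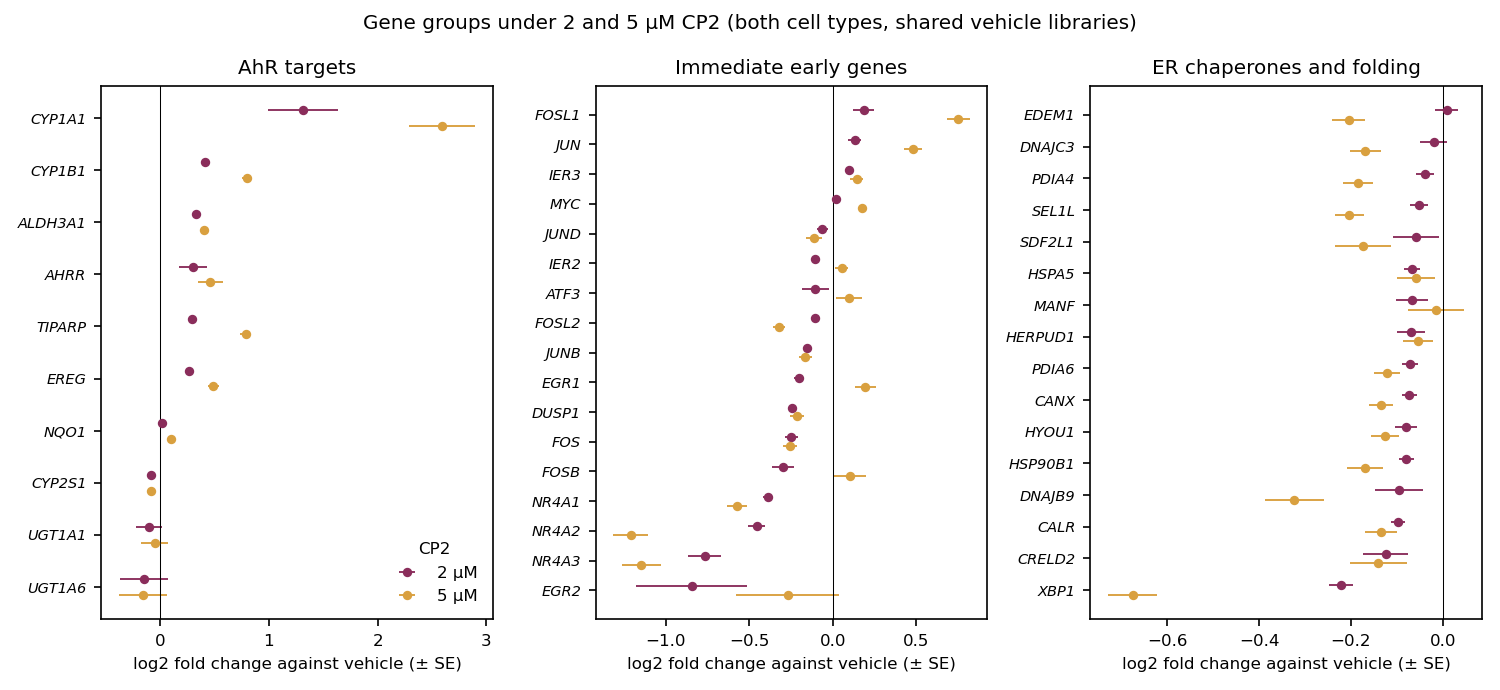
Log2 fold change against vehicle ± standard error for each tested gene of the AhR targets, the immediate early genes and the ER chaperones, at 2 µM and at 5 µM CP2 with the vehicle libraries in common. At 2 µM the medians are 0.28 for the 10 AhR targets, -0.15 for the 17 immediate early genes and -0.070 for the 16 ER chaperones.

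Other genes with the smallest adjusted p values had varied roles. INSL4, which encodes an insulin-like peptide of the placenta, fell by 0.45 on the log2 scale (SE 0.038, adjusted p = 1.54e-07). In empty-vector cells it was at 86.6, 96.1 and 79.2 CPM with vehicle and 58.1, 61.7 and 59.9 CPM with CP2, and in USP18 cells at 196, 195 and 199 CPM and then 141, 154 and 157 CPM. IGFBP3, a binding protein of insulin-like growth factors, fell by 0.25 on the log2 scale (SE 0.022, adjusted p = 2.69e-07). Its means were 1079 ± 29.0 CPM (SD, n = 3) with vehicle and 906 ± 34.5 CPM with CP2 in empty-vector cells, and 783 ± 9.29 and 659.9 ± 29.9 CPM in USP18 cells. For both genes, treated and vehicle libraries were separate in each cell type. Among rises, ROR1, a receptor tyrosine kinase-like protein of Wnt5a signalling, was at 10.6, 11.0 and 12.4 CPM with vehicle and 17.1, 14.4 and 16.1 CPM with CP2 in empty-vector cells, and at 28.6, 27.1 and 28.6 CPM and then 37.0, 37.2 and 38.0 CPM in USP18 cells. Its libraries did not overlap either, and its log2 fold change was 0.44 (SE 0.049, adjusted p = 5.35e-06). Smaller rises with separate libraries were in UBASH3B (0.26), a phosphatase gene, and HIPK2 (0.24), a nuclear kinase gene, with adjusted p values from 5.67e-07 to 5.95e-06. Smaller falls were in ID1 (-0.23), an inhibitor of helix-loop-helix factors that BMP signals raise, SPTSSA (-0.22), a subunit of serine palmitoyltransferase, PTP4A1 (-0.19), a phosphatase gene, and AL135905.2 (-0.22), with adjusted p values from 1.45e-06 to 3.37e-06. SIK1B, a copy of the kinase gene SIK1 that shares its reads and is uncertain for this reason, fell by 0.19 (adjusted p = 3.37e-06).

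Redox genes were examined because β-lapachone, one of several inhibitors that the authors name, is a quinone known to cycle between redox states through the reductase NQO1. NQO1 was at 1754, 1749.5 and 1769 CPM with vehicle and 1739.9, 1774 and 1769 CPM with 2 µM CP2 in empty-vector cells, and at 1347, 1382 and 1362 CPM and then 1382, 1381 and 1416 CPM in USP18 cells. The groups overlapped in both cell types, and the log2 fold change of 0.016 (95% confidence interval -0.016 to 0.048) did not pass the test (adjusted p = 0.724). NRF2 targets had 4 genes higher and 2 lower of 28, beside 1.09% and 1.89% over all genes, with a median log2 fold change of 0.000434. GCLC (0.092, adjusted p = 0.00299) and GCLM (0.10, adjusted p = 0.00322), the subunits of the enzyme that starts glutathione synthesis, were among the higher ones, with separate libraries in both cell types, but neither passed in the fit of all 54 libraries. TRIM16L (0.094) and UGDH (0.081) were the other 2. PGD (-0.066, adjusted p = 0.0252) and EPHX1 (-0.10, adjusted p = 0.0379) were the lower ones, named after their values were seen, and the fit of all 54 libraries called 1 of the list as higher and 0 as lower. TXNRD1, the thioredoxin reductase gene, had a log2 fold change of 0.0017 (adjusted p = 0.976). Of 15 quinone and carbonyl reductases, 1 was higher (AKR1B1, 0.086, adjusted p = 0.0214) and 1 lower (POR, -0.090, adjusted p = 0.028), and these calls were lost in 3 and 6 of 12 fits with 1 library left out, where adjusted p reached 0.0664 and 0.103. The libraries concerned were replicate 2 of vehicle in USP18 cells, replicate 1 of 2 µM CP2 in empty-vector cells and replicate 1 of 2 µM CP2 in USP18 cells for AKR1B1, and replicates 1 and 2 of vehicle in empty-vector cells, replicate 3 of vehicle in USP18 cells and replicates 1, 2 and 3 of 2 µM CP2 in empty-vector cells for POR. AKR1C1, AKR1C2 and AKR1C3, which are close copies of each other with uncertain counts, did not pass.

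Aldehyde dehydrogenases, ALDH3A1 among them, had 4 higher and 2 lower of 15 tested of 19 (over all genes 1.09% and 1.89%), with a median log2 fold change of 0.00803. ALDH3A2, the neighbour of ALDH3A1 on chromosome 17, which oxidises fatty aldehydes, rose by 0.090 (SE 0.017, adjusted p = 0.00333). ALDH1B1, a mitochondrial member, rose by 0.12 (adjusted p = 0.0163), and ALDH3B1 fell by 0.15 (SE 0.026, adjusted p = 0.00132). The change in ALDH3A1 was 1.26-fold, against 1.06-fold in ALDH3A2.

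USP18 itself differed with the vector. Its level was 10.6, 10.7 and 11.1 CPM with vehicle and 11.3, 10.8 and 11.0 CPM with CP2 in empty-vector cells, and 1302, 1292 and 1328 CPM and 1209.7, 1254 and 1229.8 CPM in USP18 cells. The cell types differed by far more than the treatments, and the values with and without CP2 overlapped in empty-vector cells but not in USP18 cells. The common log2 fold change was -0.075 (SE 0.022, adjusted p = 0.0694), which did not pass; reads of USP18 may also be counted for its near copy USP41. Of the 8 genes of the ISG15 conjugation machinery, 0 passed as higher or lower in edgeR and 0 in DESeq2, with 2 at an unadjusted p under 0.05. ISG15, the modifier, had a log2 fold change of 0.054 with a 95% confidence interval of -0.29 to 0.40. Among 38 interferon-stimulated genes tested of 51, 1 was higher and 1 lower, beside 2.98% called over all genes, and the median log2 fold change was 0.0085. OAS1, a sensor of double-stranded RNA, was the lower one at -0.19 (SE 0.039, adjusted p = 0.0057), with separate libraries in both cell types. EIF2AK2, another such sensor, was the higher one at 0.083 (adjusted p = 0.0169), which did not pass without a filter on low counts or in the fit of all 54 libraries.

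Lists of growth and stress genes are given next, beside 2.98% called over all genes at 2 µM. Mitosis genes had 2 higher and 0 lower of 26, with 6 at an unadjusted p under 0.05, 2 higher by DESeq2 and 0 in the fit of all 54 libraries; 23 of the 26 had a log2 fold change above 0, with a median of 0.036. CENPF, a kinetochore gene (0.10, adjusted p = 0.00322), was one of the 2. MKI67, the gene of a proliferation marker, was the other (0.073, adjusted p = 0.0353) and was lost in 7 of 12 fits with 1 library left out (adjusted p up to 0.0937), those without replicates 1, 2 and 3 of vehicle in empty-vector cells, replicate 2 of vehicle in USP18 cells, replicates 1 and 3 of 2 µM CP2 in empty-vector cells and replicate 3 of 2 µM CP2 in USP18 cells. DNA replication genes had 1 call, FEN1 (0.083, adjusted p = 0.0454), which was lost in 9 of 12 fits with 1 library left out (adjusted p up to 0.128), namely replicates 1 and 2 of vehicle in empty-vector cells, replicates 1, 2 and 3 of vehicle in USP18 cells, replicates 1 and 2 of 2 µM CP2 in empty-vector cells and replicates 1 and 2 of 2 µM CP2 in USP18 cells. The FEN1 call was lost also with no filter, with the replicate block and in the fit of all 54 libraries. Of 27 p53 targets, 0 passed in edgeR and 0 in DESeq2, while 4 had an unadjusted p under 0.05, and their median log2 fold change was 0.020. Of 11 heat shock genes, HSP90AA1 alone passed, and the median was 0.020. Of 22 cholesterol synthesis genes, 1 passed, HMGCS1 (0.11, adjusted p = 0.00879), which makes HMG-CoA for the pathway. Hypoxia and glycolysis genes had 1 higher and 4 lower of 21. PFKFB3, which encodes an activator of glycolysis, was the higher one (0.13, SE 0.020, adjusted p = 0.000311), and NDRG1 (-0.17, adjusted p = 0.0083) and ALDOA (-0.10, adjusted p = 0.00242) were among the lower ones, although not in the fit of all 54 libraries. Of 17 NF-kappaB targets, 1 passed, BIRC3 (0.22, SE 0.032, adjusted p = 0.000176), an inhibitor of apoptosis, with separate libraries in both cell types. Of 19 TGF-beta and epithelial-mesenchymal genes, 1 passed, TGFBI, a matrix protein gene (-0.11, SE 0.019, adjusted p = 0.00122). Of 4 metallothionein and zinc export genes tested of 9, 0 passed in edgeR and 0 in DESeq2, with 2 at an unadjusted p under 0.05. Mitochondrially encoded mRNAs had 1 call of 13 (MT-ND6, 0.19, adjusted p = 0.0173), lost when either replicate 3 of vehicle in USP18 cells or replicate 2 of 2 µM CP2 in empty-vector cells was left out (adjusted p up to 0.0547), and a median log2 fold change of -0.083. Of the 13, 1 was above 0, and 7 had an unadjusted p under 0.05. As lower, 11 of them passed with no filter, 4 with the replicate block, 3 with at least 10 counts in every library, 1 in DESeq2 and 0 in the fit of all 54 libraries, which did not call MT-ND6. Of the 6 epithelial markers, 0 passed in edgeR and 2 as lower in DESeq2, with 4 at an unadjusted p under 0.05. As lower, 4 passed with no filter and 3 in the mean of both cell-type contrasts. With the replicate block and in the fit of all 54 libraries 0 passed.

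Whether the effect was shared by the cell types was examined with contrasts that have no library in common. In empty-vector cells 291 genes (1.84% of 15811) passed, 127 higher and 164 lower. In USP18 cells 179 genes (1.13%) passed, 50 higher and 129 lower. These counts depended on single libraries: the first became 184 without replicate 1 of vehicle in empty-vector cells, 157 without replicate 2 of vehicle in empty-vector cells, 155 without replicate 1 of 2 µM CP2 in empty-vector cells and 183 without replicate 3 of 2 µM CP2 in empty-vector cells, and the second 111 without replicate 1 of vehicle in USP18 cells, 100 without replicate 2 of vehicle in USP18 cells, 100 without replicate 3 of vehicle in USP18 cells, 95 without replicate 1 of 2 µM CP2 in USP18 cells and 112 without replicate 2 of 2 µM CP2 in USP18 cells. Both lists held 74 genes, which is 25.4% of the first and 41.3% of the second, and 72 of these had the same direction. Of the 291 genes, 255 (87.6%) had the same direction in USP18 cells, and of the 179 genes, 161 (89.9%) had it in empty-vector cells, against 56.9% of all genes tested. The median absolute log2 fold change of the empty-vector genes was 0.19 in the cells they were called in, and their median in USP18 cells, signed by that direction, was 0.092. For the USP18 genes these values were 0.19 and 0.12. The markers had nearly equal effects: CYP1B1 had log2 fold changes of 0.43 (SE 0.037) and 0.40 (SE 0.041), and ALDH3A1 0.36 (SE 0.024) and 0.30 (SE 0.026). The 95% confidence interval of the difference, USP18 cells minus empty-vector cells, was -0.14 to 0.091 for CYP1B1 and -0.13 to 0.014 for ALDH3A1.

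A difference in response between the cell types was tested as an interaction. It was called in 9 genes (0.0569%), with 1083 at an unadjusted p under 0.05. None of the 9 was among the 471 genes of the common effect. The common fit puts a difference between cell types into its residual spread, so this follows in part from the model. In the mean of both cell-type contrasts AC138696.1, AC242426.2, KMT2D, KRT18 and PEG10 did pass as common. As an interaction, 31 genes passed with DESeq2, 15 with at least 10 counts in every library and 156 with no filter. The count became 14 without replicate 1 of vehicle in empty-vector cells, 24 without replicate 3 of vehicle in empty-vector cells, 5 without replicate 2 of vehicle in USP18 cells, 3 without replicate 1 of 2 µM CP2 in empty-vector cells and 2 without replicate 1 of 2 µM CP2 in USP18 cells, and it was 1 in the fit of all 54 libraries. SERPINE2, which encodes a secreted protease inhibitor, kept an interaction in that fit and in the other alternatives. It was at 48.0, 43.4 and 46.6 CPM with vehicle and 56.9, 54.4 and 56.3 CPM with CP2 in empty-vector cells, and at 35.3, 38.0 and 35.1 CPM and then 32.5, 32.2 and 33.1 CPM in USP18 cells. CP2 libraries were thus all higher in the first and all lower in the second. The adjusted p of the interaction was 0.0117; it was lost when replicate 2 of vehicle in USP18 cells, replicate 1 of 2 µM CP2 in empty-vector cells or replicate 1 of 2 µM CP2 in USP18 cells was left out (adjusted p up to 0.0585). The epithelial genes CDH1 (log2 fold changes of -0.22 in empty-vector and 0.069 in USP18 cells) and KRT18 (-0.17 and 0.0064) had an interaction too, both with an adjusted p of 0.0329. Neither call held throughout: that of CDH1 was lost in 9 of 12 fits with 1 library left out (adjusted p up to 0.15), those that left out in turn replicates 1 and 2 of vehicle in empty-vector cells, replicates 1 and 2 of vehicle in USP18 cells, replicates 1 and 2 of 2 µM CP2 in empty-vector cells and replicates 1, 2 and 3 of 2 µM CP2 in USP18 cells. That of KRT18 was lost in 6 (adjusted p up to 0.128), those that left out in turn replicates 1 and 2 of vehicle in USP18 cells, replicates 1 and 3 of 2 µM CP2 in empty-vector cells and replicates 1 and 2 of 2 µM CP2 in USP18 cells. In the fit of all 54 libraries the adjusted p was 0.815 for CDH1 and 1 for KRT18.

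**Figure D4:**
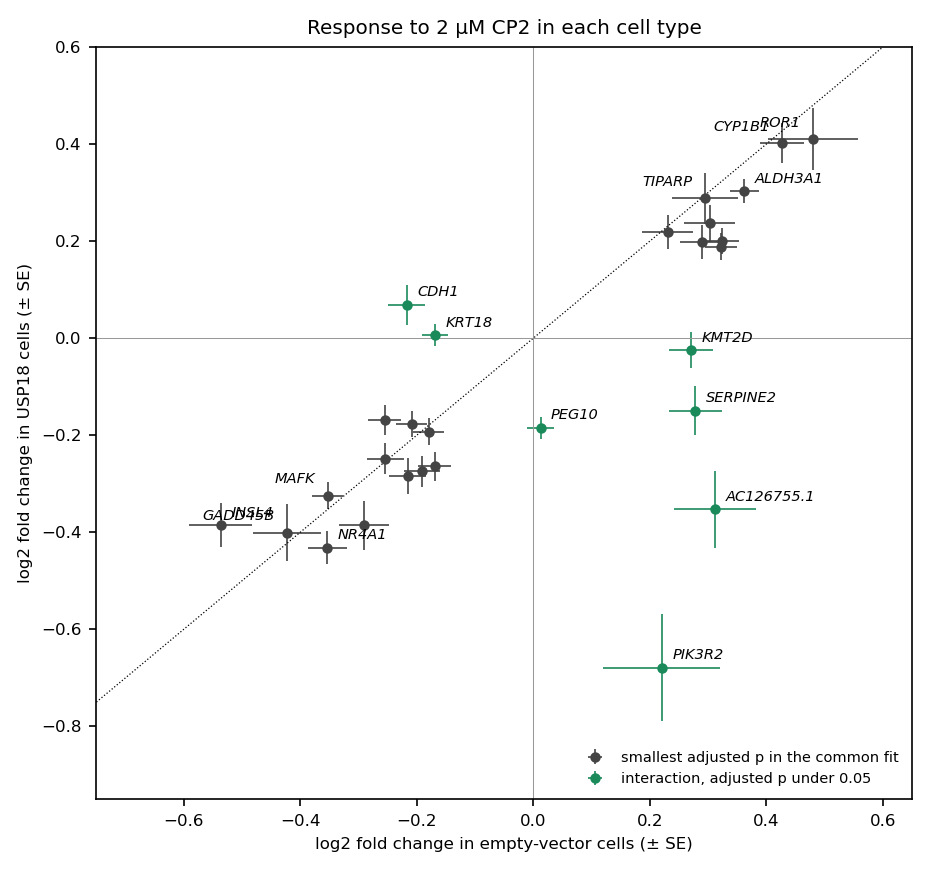
Log2 fold change of 2 µM CP2 against vehicle ± standard error in empty-vector cells (horizontal axis) and in USP18 cells (vertical axis) for 28 named genes with a mean of at least 5 CPM in each group; the dotted line marks equal effects. Genes with the smallest adjusted p in the common fit lie along the line. The 7 with an interaction, such as SERPINE2 (0.28 and -0.15), lie off it. Both sets were chosen by these tests, so their places follow from that choice.

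The higher dose gave more and larger changes. Against the same vehicle libraries, 5 µM CP2 changed 3942 of 15760 genes (25%) at an adjusted p under 0.05, 73 of them with a log2 fold change over 1. Both comparisons share the vehicle libraries, so values are given side by side without an overlap. A direct test of 5 µM against 2 µM, which uses no vehicle library, called 2734 of 15748 genes (17.4%), 1238 higher and 1496 lower at 5 µM. CYP1B1 rose further, to 262, 270.4 and 229 CPM in empty-vector and 172, 184 and 185 CPM in USP18 cells at 5 µM, above all libraries of the same cell type at 2 µM. Its log2 fold change was 0.42 at 2 µM and 0.80 at 5 µM, and between the doses 0.38 (SE 0.044, adjusted p = 8.39e-06). ALDH3A1 was at 1384, 1359 and 1490.1 CPM in empty-vector and 537, 543 and 545 CPM in USP18 cells at 5 µM, with overlap between the doses in USP18 cells. Its log2 fold changes were 0.33 and 0.41, and the difference between the doses of 0.074 (95% confidence interval 0.012 to 0.14) did not pass (adjusted p = 0.0938). CYP1A1 (1.31 at 2 µM and 2.59 at 5 µM, adjusted p between doses = 0.000605), TIPARP (0.29 and 0.79, adjusted p = 4.42e-06) and EREG (0.27 and 0.49, adjusted p = 0.00202) were higher at 5 µM than at 2 µM. INSL4 (-0.45 and -1.23, adjusted p between doses = 2e-06), XBP1 (-0.22 and -0.68, adjusted p = 8.46e-06), NR4A2 (-0.46 and -1.21, adjusted p = 4.03e-05), CTH (-0.39 and -0.94, adjusted p = 0.000249) and AHR (-0.14 and -0.50, adjusted p = 7.84e-06) were lower still at 5 µM. ROR1 (0.44 and 0.42, 95% confidence interval of the difference -0.13 to 0.10) and DUSP1 (-0.24 and -0.22, -0.040 to 0.10) did not pass the test between doses.

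Some genes that changed at 2 µM were nearer to vehicle, or on its other side, at 5 µM. The test between doses and the test at 2 µM share the 2 µM libraries. ID1 was at 261, 241 and 245 CPM with vehicle, 214, 221 and 221 CPM at 2 µM and 246, 241 and 262 CPM at 5 µM in empty-vector cells, and at 191, 192 and 191, 164, 159 and 151 and 219, 212 and 206 CPM in USP18 cells. The 2 µM libraries were the lowest in both cell types. The log2 difference between the doses was 0.30 (SE 0.038, adjusted p = 2.03e-05), and 5 µM against vehicle gave 0.073 (adjusted p = 0.106). SLC3A2 (-0.10 at 2 µM, 0.11 at 5 µM) and SLC7A5 (-0.10 and 0.15) changed sign with both values past the test, with adjusted p values between doses of 7.71e-05 and 0.000206. TGFBI (-0.11 and 0.051), UGDH (0.081 and -0.030) and HMGCS1 (0.11 and -0.054) differed between doses with adjusted p values of 8.43e-05, 0.00431 and 0.00194, and did not pass against vehicle at 5 µM. EGR1 had -0.20 at 2 µM and 0.19 at 5 µM (adjusted p between doses = 0.00105). By list, 5 immediate early genes were higher and 7 lower at 5 µM. Over all 15760 genes, 1850 were higher and 2092 lower. Beside this, 10 of 11 heat shock genes were higher (median 0.36), 21 of 26 mitosis genes higher (median 0.15), 10 of 27 p53 targets higher and 2 lower, 11 of 22 cholesterol synthesis genes lower, 12 of 16 ER chaperones lower (median -0.15) and 7 of 10 AhR targets higher (median 0.44). Over 1 on the log2 scale, 39 genes differed between doses, 13 higher and 26 lower at 5 µM. LY6K had 14, 16 and 18 counts at 2 µM and 57, 33 and 31 at 5 µM in empty-vector cells (log2 difference 1.54, adjusted p = 0.000252). TNFSF10, which encodes the death ligand TRAIL, had 14, 18 and 13 counts at 2 µM and 3, 8 and 5 at 5 µM in USP18 cells (-1.64, adjusted p = 0.0048).

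Across the 18 groups of the study, levels of the markers with 2 µM CP2 were in the middle or upper range. CYP1B1 with 2 µM CP2 ranked 4 of 9 groups in empty-vector cells, with a mean of 209 CPM, and 5 of 9 in USP18 cells, with 127 CPM. The highest means were 317 CPM with 5 µM CP14 in empty-vector cells and 187 CPM with 2.5 µM CP14 in USP18 cells. Neighbours in this order overlapped: in empty-vector cells 5 µM CP18 had 212 CPM and 2.5 µM CP14 199.6 CPM. ALDH3A1 with 2 µM CP2 ranked 3 of 9 in either cell type, with 1284 and 536 CPM, within the spread of 5 µM CP18 (1289 and 547 CPM). Its lowest means were with 5 µM CP14, at 589.6 and 72.8 CPM. Doses differ between the compounds, and these levels were not tested against each other.

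**Figure D5:**
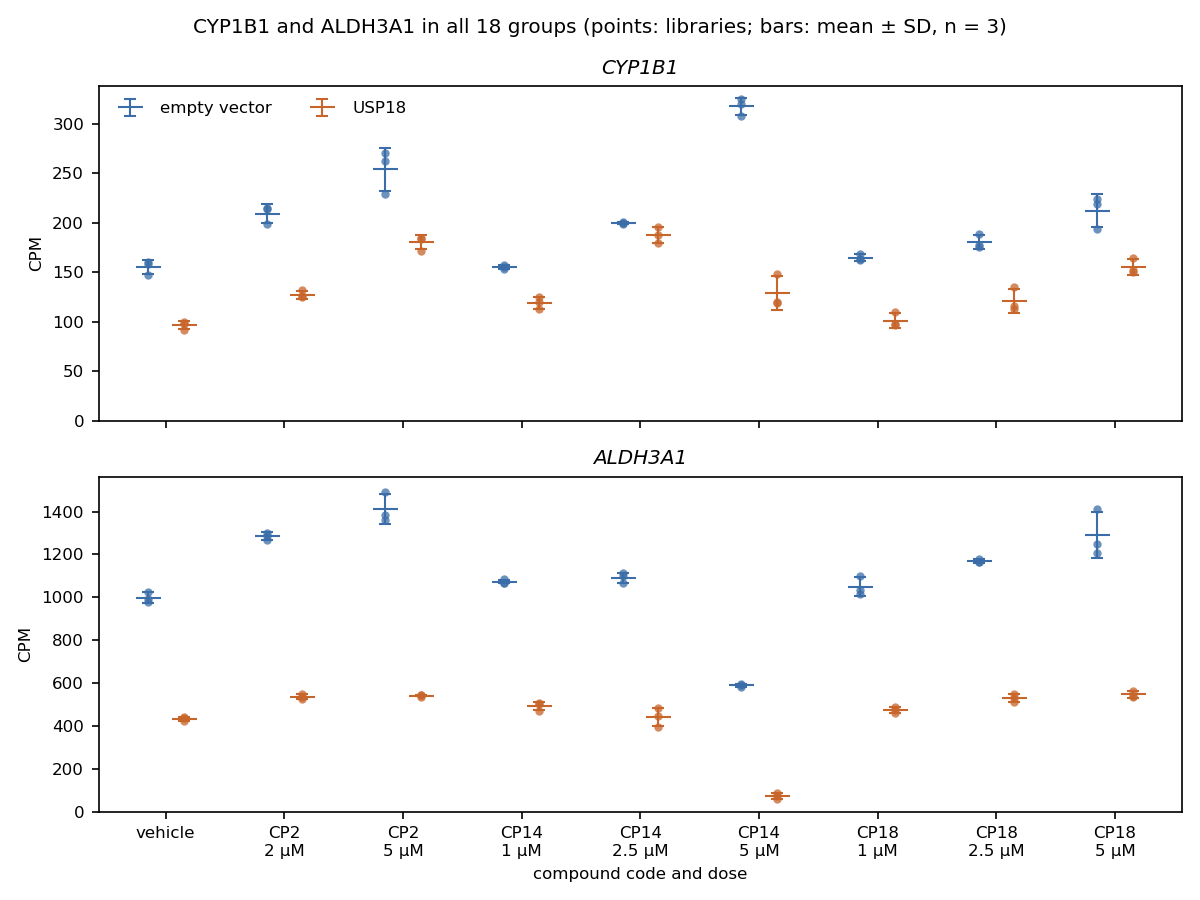
CPM of CYP1B1 and ALDH3A1 in each of 54 libraries (points) with the mean ± SD of 3 libraries (bars), by compound code and dose, in empty-vector and USP18 cells. ALDH3A1 is at 998 CPM with vehicle, 1284 CPM with 2 µM CP2 and 589.6 CPM with 5 µM CP14 in empty-vector cells.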

How the data were processed

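The authors deposited expected counts, which RSEM (1.3.1 in the processing notes, another version in the methods) estimated for each gene after trimming with cutadapt 1.18 and alignment with STAR 2.7.0f to hg38, and not scaled between libraries. The RSEM annotation is named as mouse, whereas the identifiers are human; labels state poly(A) capture and methods state removal of ribosomal RNA. Counts were rounded and tested in R 4.3.3 with edgeR 4.0.16 (TMM, filterByExpr at a minimum count of 10 and total of 15) by its quasi-likelihood test, and p-values were adjusted by Benjamini-Hochberg over all genes tested. The common effect came from 12 libraries with the vector as a covariate, and the effects per cell type and their interaction from a fit of 4 group means. The procedure was tested on simulated data. The planted changes were larger than most of those called at 2 µM, so the test does not cover the small ones. Between replicates of a group, chi-square per gene was 2.02 to 4.45 in the 12 libraries, above counting noise, 2.14 to 4.26 with 5 µM CP2 in USP18 cells and 7.19 to 8.91 with 5 µM CP2 in empty-vector cells, the most variable of these groups. The 54 libraries held 16673228 to 25609062 counts. Replicate experiments are described in general as independent, but whether these samples were separate cultures is not stated, so p-values measure only the spread between samples. Floors at a count of 3 cover counting error only, while confidence intervals come from the fitted SE, which includes the spread between samples. GENCODE v44 gave coordinates (GRCh38).

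The comparison, its members and the gene lists were chosen with earlier results of these data known. Named genes are the 2 markers, USP18 and NQO1; all genes past both thresholds, and those with the smallest adjusted p until 15 rises and 15 falls were named; all genes of 4 lists (AhR complex, AhR targets, ISG15 conjugation, quinone and carbonyl reductases); up to 3 from each other list; the genes with an interaction; and the largest differences between doses. Further immediate early genes, ER chaperones and NRF2 targets were named after their values were seen. Some results that fall under these rules are not reported here. Alternatives were DESeq2 1.42.0, RLE factors, all genes with any count, only genes with 10 counts or more in each library, a replicate block, a fit of all 54 libraries, the mean of both cell-type contrasts, and leaving out each library. CP14 and CP18 were left out except for the levels of the markers, because the comparison concerns CP2.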

Additional observations from a re-analysis of the deposited data

Results flagged for a closer look

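The genes below responded differently to 2 µM CP2 in the 2 cell types, by a test of the difference itself (interaction term in edgeR, adjusted over 15811 genes), and no cause was tested. AC138696.1 had an adjusted p of 5.8e-07: its counts in empty-vector cells were 36, 38 and 56 with vehicle against 20, 18 and 18 with CP2, and it had 0 counts in all 3 vehicle libraries of USP18 cells against 45, 44 and 39 with CP2, at least 14.5-fold higher at a floor of 3 counts per library. At 5 µM empty-vector cells had 34, 0 and 0 counts of it, while USP18 cells had 7, 18 and 0, so that libraries of 1 group were far apart. For AC242426.2 (adjusted p = 0.00569) all 3 vehicle libraries of empty-vector cells were at 0 counts and those with CP2 at 18, 26 and 19, at least 7.00-fold higher, while in USP18 cells counts were 11, 21 and 8 with vehicle and 2, 7 and 8 with CP2. SERPINE2 had log2 fold changes of 0.28 (SE 0.046) in empty-vector cells and -0.15 (SE 0.050) in USP18 cells, with an adjusted p of 0.0117 for the difference. AC126755.1 (annotated as PKD1P4, a pseudogene that shares sequence with PKD1, so that its counts are uncertain) had log2 fold changes of 0.31 (SE 0.070) in empty-vector cells and -0.35 (SE 0.080) in USP18 cells, with an adjusted p of 0.0117 for the difference. PEG10, an imprinted gene of retroviral origin, had log2 fold changes of 0.012 (SE 0.023) in empty-vector cells and -0.18 (SE 0.023) in USP18 cells, with an adjusted p of 0.0129 for the difference. PIK3R2, a regulatory subunit of PI3 kinase, had log2 fold changes of 0.22 (SE 0.10) in empty-vector cells and -0.68 (SE 0.11) in USP18 cells, with an adjusted p of 0.0132 for the difference. KMT2D, a histone methyltransferase gene, had log2 fold changes of 0.27 (SE 0.038) in empty-vector cells and -0.025 (SE 0.036) in USP18 cells, with an adjusted p of 0.0302 for the difference. CDH1, the gene of E-cadherin, had log2 fold changes of -0.22 (SE 0.032) in empty-vector cells and 0.069 (SE 0.041) in USP18 cells, with an adjusted p of 0.0329 for the difference. KRT18, a keratin gene, had log2 fold changes of -0.17 (SE 0.023) in empty-vector cells and 0.0064 (SE 0.023) in USP18 cells, with an adjusted p of 0.0329 for the difference. With 1 of the 12 libraries left out in turn, the interaction passed in 10 of 12 fits for AC126755.1, 12 of 12 fits for AC138696.1, 12 of 12 fits for AC242426.2, 3 of 12 fits for CDH1, 4 of 12 fits for KMT2D, 6 of 12 fits for KRT18, 10 of 12 fits for PEG10, 10 of 12 fits for PIK3R2 and 9 of 12 fits for SERPINE2. In the fit of all 54 libraries the interaction passed for SERPINE2 alone, with adjusted p values of 0.796 for AC126755.1, 0.576 for AC138696.1, 0.344 for AC242426.2, 0.815 for CDH1, 1 for KMT2D, 1 for KRT18, 1 for PEG10 and 0.705 for PIK3R2.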

How the results depend on the processing

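Counts that stayed within 1.5 times the value in the report under an alternative are not listed, and for the others the cause was not tested. With no filter, 48 genes past both thresholds of the common effect, 524 empty-vector genes, 369 USP18 genes and 156 interaction genes passed. With at least 10 counts in every library, 0 genes past both thresholds of the common effect and 15 interaction genes passed. With DESeq2, 0 genes past both thresholds of the common effect and 31 interaction genes passed. With the fit of all 54 libraries, 5 genes past both thresholds of the common effect, 216 genes of the common effect, 94 empty-vector genes, 73 USP18 genes and 1 interaction gene passed. At least 10 counts in every library left none of the 9 genes past both thresholds to test, and DESeq2 gave none of them an adjusted p; at an unadjusted p under 0.05 with a log2 fold change over 1, 33 genes stood in DESeq2 and 0 in edgeR with that filter. With each library left out in turn, genes past both thresholds of the common effect numbered 7 to 16, genes of the common effect numbered 317 to 540, empty-vector genes numbered 155 to 392, USP18 genes numbered 95 to 220, interaction genes numbered 2 to 24 and genes between doses numbered 2127 to 2934. Replicate numbers did not pair samples: over 6208 genes, residual correlations of 18 same-numbered pairs ran from -0.121 to 0.142, so the block is a check only; it gave 441 genes of the common effect. Of 63 named genes that passed, 39 did so in each alternative that gave them an adjusted p, 61 in each but the fit of all 54 libraries, and 51 in all 12 fits with a library left out; no passing value changed direction in any of these. 22 named genes that did not pass did so in an alternative. Depth limits genes such as CYP1A1, whose vehicle libraries had 3 to 10 counts, and a change in a gene at or under 3 counts per library was not detectable.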

Other observations

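Small RNAs without a poly(A) tail varied between libraries of the same group: 19 such genes summed to 227, 517 and 69.8 CPM with vehicle in empty-vector cells, 147, 249.9 and 204 CPM with 2 µM CP2, and 47.3, 112 and 48.8 and 132, 47.3 and 78.1 CPM in USP18 cells. Of 8 tested, 0 passed in edgeR and 0 in DESeq2, with 0 at an unadjusted p under 0.05; their median log2 fold change was -0.41. This 0 rested on 1 library: without replicate 3 of vehicle in empty-vector cells, RPPH1 (adjusted p = 0.0317), RN7SK (0.015) and SNORD3A (0.0364) passed as lower, and with no filter 4 genes of the list did. Their part in other results was not tested.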
